A study of Mus musculus with 8 samples.

Results

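The genes described here are the 9 genes of the tumour necrosis factor (TNF) ligand and receptor superfamilies listed for mouse chromosome 4, among 1301 measured protein-coding genes of that chromosome. They were taken by name from the RefSeq annotation of mm10, by a rule that reads no measured values, and all 9 had a timing score. Replication timing was measured by Repli-seq, which sorts cells into early and late S phase and compares the newly made DNA of both fractions. The control was the mouse embryonic stem cell line JM8N4, and the other group lacked an enhancer of the pluripotency factor gene Klf4, which lies 8.19 Mb below the nearest of these genes. Each genotype had 2 profiles, each made from 1 early and 1 late library, and cells had been given the nucleotide analog BrdU for 2 h. The labels do not give the coordinates of the deletion, the number of alleles or clones, or whether replicates were separate cultures, so the spread between profiles may be technical. Timing scores do not show expression, so the labelled cell type was not checked against marker genes.

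The deposited table gives 1 score per profile at steps of 5 kb, and the score has no stated unit or log base. Genes lay at 15.1 per Mb where the mean score was above 0 and at 2.96 per Mb where it was below 0, and higher scores are therefore read as earlier replication. A gene with a score above 0 is called early and one below 0 late. The table holds no read counts, so the depth behind a score is unknown. A gene's score is the mean over the 5 kb bins it overlaps, and neighbouring bins change little, so genes that lie side by side do not give separate measurements. Over all positions the median difference between genotypes, deletion minus control, was 0.16, and each difference below is followed, where it matters, by its value after subtraction of that shift.

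TNF superfamily ligands are mostly membrane proteins that act as trimers, and their receptors are membrane proteins with cysteine-rich repeats outside the cell. Binding brings receptors together and recruits adaptor proteins, which lead to NF-kappaB and kinase signalling or, for receptors with a death domain, to caspase activation. Many members costimulate T cells or act between immune cells, and they are known mainly from lymphocytes and myeloid cells rather than from embryonic stem cells. Early replication in a cell type generally goes with gene-dense, open chromatin, while late replication goes with gene-poor, repressed regions.

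The 9 genes form 6 loci, where genes closer than 500 kb share a locus. The 2 ligand genes are a pair, with Tnfsf15 at chromosome 4, 63724600 to 63745059, and Tnfsf8 at 63831202 to 63861508, 86.1 kb apart with no protein-coding gene between them. The 7 receptor genes start 81.4 Mb further on. Tnfrsf1b (145212368 to 145246870) and Tnfrsf8 (145267132 to 145315164) are 20.3 kb apart. Tnfrsf9 (150920155 to 150946104), Tnfrsf25 (152115528 to 152120119) and Tnfrsf14 (154918487 to 154928620) stand alone. Tnfrsf4 (156013595 to 156016613) and Tnfrsf18 (156026322 to 156028894) are 9.71 kb apart near the end of the chromosome. Both ligand genes, Tnfrsf1b, Tnfrsf8 and Tnfrsf14 are transcribed towards lower coordinates. The promoter of Tnfsf15 thus faces Tnfsf8.

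Promoter sequences of all 9 genes were matched by symbol in a RefSeq table of GRCm38.p6. The number of CpG dinucleotides was counted in the 250 bases before the start of each gene. CpG-rich promoters generally belong to broadly active genes. The sequences of 3 members are shown because they set a late gene with few CpG beside an early gene with as few and an early gene with more. They read 5′ to 3′ along the transcribed strand, with each CpG in capitals. The window of Tnfsf15 is chr4:63745060-63745309 on the minus strand, that of Tnfrsf18 is chr4:156026072-156026321 on the plus strand, and that of Tnfrsf1b is chr4:145246871-145247120 on the minus strand.
Tnfsf15: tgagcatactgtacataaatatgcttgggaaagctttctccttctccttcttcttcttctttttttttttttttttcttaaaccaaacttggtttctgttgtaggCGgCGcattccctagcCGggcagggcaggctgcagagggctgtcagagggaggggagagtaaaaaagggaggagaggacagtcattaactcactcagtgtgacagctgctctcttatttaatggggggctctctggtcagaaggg
Tnfrsf18: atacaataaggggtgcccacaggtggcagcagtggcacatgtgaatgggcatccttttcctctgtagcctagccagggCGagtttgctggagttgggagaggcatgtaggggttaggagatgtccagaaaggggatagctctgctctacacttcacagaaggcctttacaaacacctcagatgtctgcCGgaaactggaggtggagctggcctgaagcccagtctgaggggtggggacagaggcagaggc
Tnfrsf1b: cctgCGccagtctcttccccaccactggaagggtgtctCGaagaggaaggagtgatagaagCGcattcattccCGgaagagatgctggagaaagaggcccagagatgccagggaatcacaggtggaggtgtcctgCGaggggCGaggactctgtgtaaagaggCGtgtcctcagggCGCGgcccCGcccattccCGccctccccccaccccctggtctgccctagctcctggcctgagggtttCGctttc

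The windows of Tnfsf15, Tnfrsf18 and Tnfrsf1b held 3, 2 and 12 CpG. Those of Tnfsf8, Tnfrsf8, Tnfrsf9, Tnfrsf25, Tnfrsf14 and Tnfrsf4 held 8, 12, 4, 8, 2 and 5. All 9 counts were at or below 12, the median over the 1067 protein-coding genes of the chromosome with a promoter entry and a score. In that background the median was 13 for the 898 genes with a mean score above 0 and 2 for the 169 genes below 0. Across those genes the count and the score had a Spearman correlation of 0.289, and across the 9 members of -0.464. Both are descriptions across genes that share neighbouring positions. Tnfrsf14 and Tnfrsf18 had the fewest CpG of the 9 genes and the highest mean scores, and Tnfsf8, with 8 CpG, had the lowest score. For Tnfsf8, Tnfrsf25, Tnfrsf14 and Tnfrsf4 the window lies partly or wholly inside the outer bounds of the gene, so it can overlap another transcript of it.

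**Figure D1:**
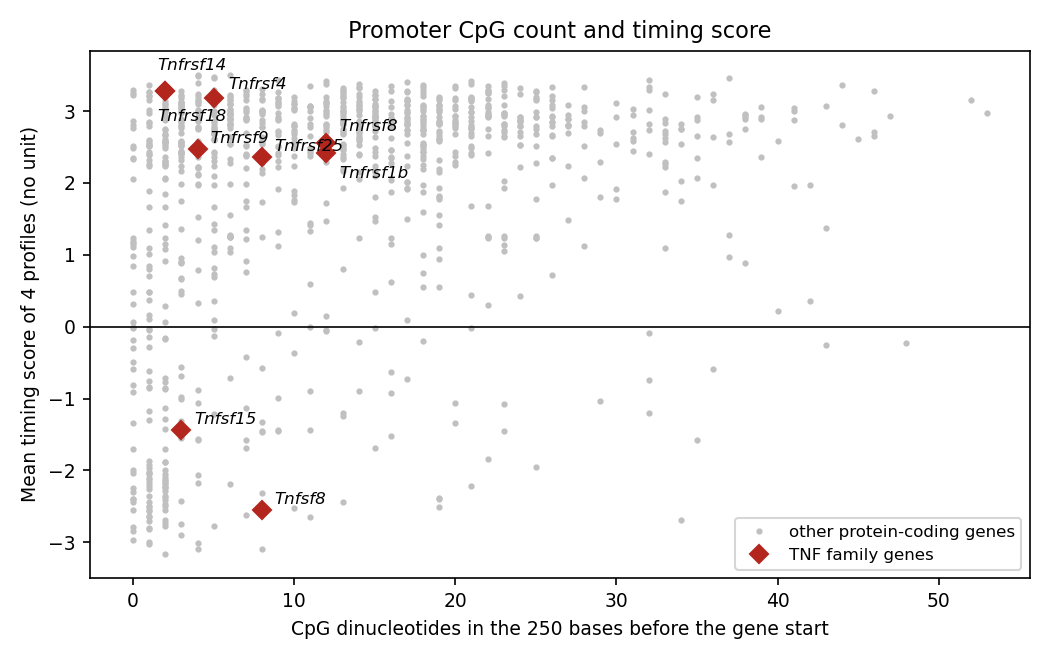
Number of CpG dinucleotides in the 250 bases before the gene start (horizontal axis) against the mean timing score of the 4 profiles (vertical axis, no unit, higher is earlier), with 1 point per protein-coding gene of chromosome 4. The 9 TNF family genes (red) have 2 to 12 CpG; Tnfsf15 and Tnfsf8 lie below a score of 0 and the 7 receptor genes above it, with the points of Tnfrsf14 and Tnfrsf18 on top of each other at 2 CpG.

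In embryonic stem cells of both genotypes the 2 ligand genes replicated late and the 7 receptor genes early, in every profile. The mean over the ligand genes was -2.08 and -1.74 in the JM8N4 profiles and -2.42 and -1.73 after the deletion. The mean over the receptor genes was 2.70 in both JM8N4 profiles, and 2.68 and 3.09 after the deletion. Receptors exceeded ligands by 4.78 and 4.44 without the deletion and by 5.10 and 4.82 with it, and no receptor gene came near a ligand gene in any profile. Over the chromosome, 79.7% of the 1301 genes were early throughout and 16.6% late throughout, so 7 early and 2 late genes among 9 are close to the makeup of the chromosome.

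**Figure D2:**
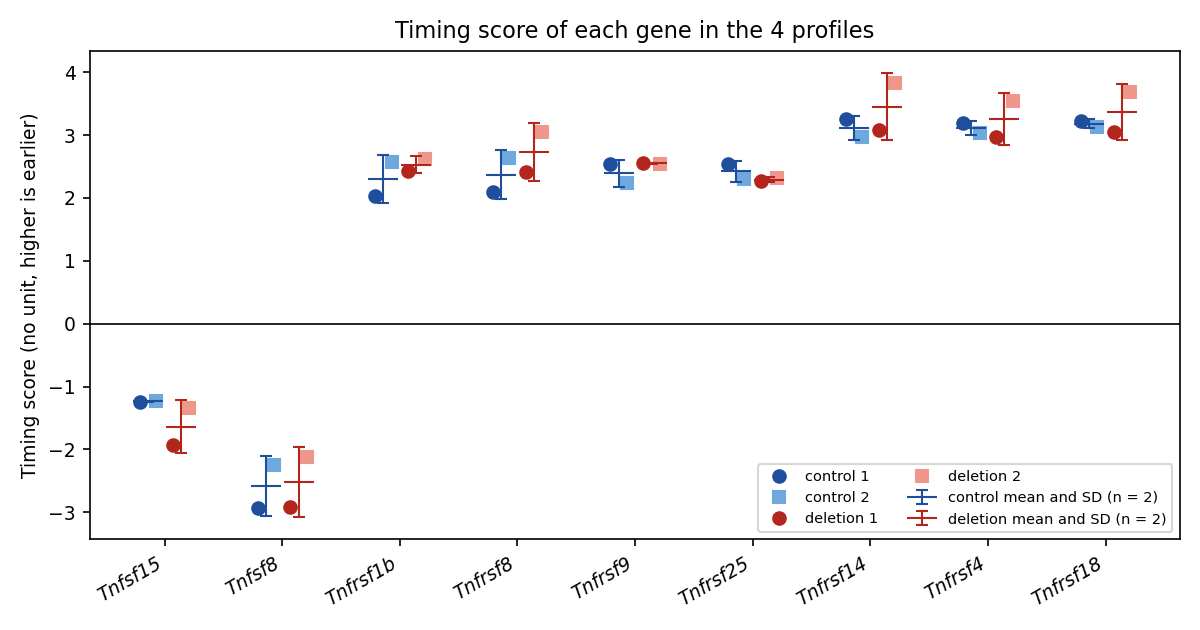
Vertical axis: timing score, without unit, with earlier replication upwards, of the 9 genes in chromosome order, with 1 point per profile and the mean with SD of each genotype (n = 2). Tnfsf15 and Tnfsf8 lie below 0 in the 4 profiles, at -2.92 to -1.23, and the 7 receptor genes lie above 0, at 2.04 to 3.83.

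Tnfsf8, the gene for CD30 ligand, was the latest of the 9 genes. Its score was -2.92 for control 1, -2.25 for control 2, -2.91 for deletion 1 and -2.12 for deletion 2. The genotypes overlapped, and control 1 and deletion 1 were the low profiles. The control mean was -2.59 ± 0.48 and the deletion mean -2.52 ± 0.56 (SD, n = 2 each). Among all measured genes Tnfsf8 stood at percentile 2.15 to 3.46 of the score in the 4 profiles, among the latest protein-coding genes of the chromosome.

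Tnfsf15, the gene for the ligand TL1A, was late to a lesser degree, at percentile 8.30 to 13.9. Its score was -1.24 for control 1, -1.23 for control 2, -1.94 for deletion 1 and -1.34 for deletion 2. Both deletion profiles were below both control profiles, which were almost equal, and deletion 1 was the furthest below. The control mean was -1.24 ± 0.0043 and the deletion mean -1.64 ± 0.425 (SD, n = 2 each).

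Both ligand genes lie on the falling flank of a timing transition. The 4 consecutive protein-coding genes Tex48, Tnfsf15, Tnfsf8 and Tnc had control means of 0.03, -1.24, -2.59 and -3.19 in order of position. Tnc, which encodes the matrix protein tenascin C, lies 98.3 kb above the pair. Within 500 kb below Tnfsf15 the score reached a local high of 0.77 and 0.58 in the control profiles and of 0.45 and 0.48 in the deletion profiles. From there it went down to -3.70 and -3.09 (controls) and to -3.80 and -2.80 (deletions) within 500 kb above the lower end of Tnfsf15. The mean over 250 kb above Tnfsf15 minus that over 250 kb below it ran from -3.08 to -1.97 in the 4 profiles, the largest change of this measure around any of the 9 genes. Around 6 of the receptor genes the same measure ran from -0.21 to 0.55, and around Tnfrsf9 from -1.27 to -0.64.

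The late domain that holds both ligand genes, an unbroken run of scores below 0, was 10.5 Mb long in each profile. Its lower edge, where the score crossed 0, lay 110 and 106 kb below the lower end of Tnfsf15 in the control profiles, and 117 and 118 kb below it in the deletion profiles. Both deletion edges were thus farther from Tnfsf15 than the control edges, by 9.85 kb on average, with edges read from positions 5 kb apart. The exact two-sided permutation p of this shift was 0.333, the smallest that 2 profiles against 2 can give. Where a score crosses 0 depends on the level of its profile, and profile medians ran from -0.79 (control 1) to -0.21 (deletion 2). The edges were read from the deposited scores only and were not recomputed under other scalings.

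**Figure D3:**
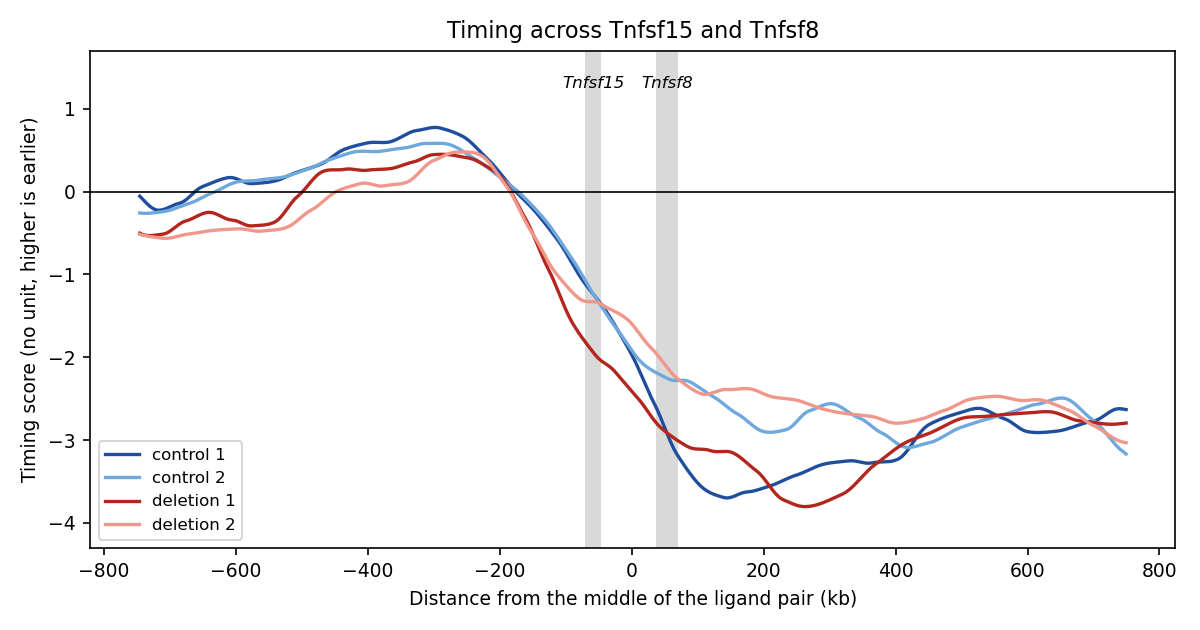
Timing score, without unit and with earlier replication upwards, against distance from the middle of the ligand pair in kb for the 4 profiles, with Tnfsf15 and Tnfsf8 shaded. All 4 profiles cross 0 between 106 and 118 kb below the lower end of Tnfsf15, and over Tnfsf15 the deletion profiles (-1.94 and -1.34) lie below the control profiles (-1.24 and -1.23).

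At steps of 25 kb along this flank, both deletion scores were below both control scores at 250 to 200 kb below the lower end of Tnfsf15 and again from 100 kb below it to that end. The genotypes overlapped at 175 to 125 kb below it and at 25 to 400 kb above it, Tnfsf8 included. At 250 kb below the lower end the control scores were 0.74 and 0.57 and the deletion scores 0.39 and 0.24. At 100 kb below it the control scores were -0.04 and -0.01 and the deletion scores -0.18 and -0.21. At 25 kb below it they were -0.79 and -0.75 against -1.50 and -1.17, a difference of -0.56. At 100 kb above it, just below Tnfsf8, they were -2.48 and -2.15 against -2.71 and -1.89. Both deletion profiles lay below both controls in an unbroken run of positions from 63600000 to 63744999, a stretch of 145 kb that was picked after its values were seen and was not tested. The score of Tnfsf15 exceeded that of Tnfsf8 by 1.69 and 1.02 in the control profiles and by 0.98 and 0.79 in the deletion profiles. The difference between the neighbours was smaller in both deletion profiles (-0.47 on average, exact two-sided permutation p = 0.333, the smallest possible). After quantile normalization the genotypes overlapped in it (-0.34, exact p = 0.667), as they did with positions read as bin ends (-0.45, exact p = 0.667). It was -0.13 without control 1 and -0.80 without control 2.

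The 7 receptor genes fell into a higher and a lower level. Tnfrsf14, Tnfrsf4 and Tnfrsf18, in the last early domain of the chromosome, scored between 2.97 and 3.83 in the 4 profiles. Tnfrsf1b, Tnfrsf8, Tnfrsf9 and Tnfrsf25 scored between 2.04 and 3.06. Tnfrsf4 exceeded Tnfrsf8, the next in the order of means, by 0.39 to 1.10 within each of the 4 profiles. Their ranges over profiles overlapped, and the levels were drawn from these same scores. Other genes of the 2 levels came closer, such as Tnfrsf14 at 2.98 and Tnfrsf8 at 2.64 in control 2. Inside the lower level, Tnfrsf8 exceeded Tnfrsf9 by 0.41 in control 2 and 0.51 in deletion 2. It was below Tnfrsf9 in control 1 and deletion 1. Within the upper level the order of Tnfrsf14 and Tnfrsf18 was the same in 3 of 4 profiles. Within the lower level the order of Tnfrsf8, Tnfrsf9 and Tnfrsf1b held in only 2 of 4 profiles from each gene to the next. These neighbours in the order did not differ beyond their spread.

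Tnfrsf14 encodes HVEM, a receptor for the ligand LIGHT and for the immunoglobulin-family protein BTLA. Its scores were 3.25 and 2.98 for the controls and 3.07 and 3.83 for the deletions. Tnfrsf18, the gene for the T cell costimulator GITR, had 3.23 and 3.13 for the controls against 3.05 and 3.68 for the deletions. Tnfrsf4, the gene for the T cell costimulator OX40, had 3.19 and 3.03 against 2.97 and 3.55 in the same order. In these 3 genes the genotypes overlapped, and deletion 2 alone stood above the other profiles. They lie in an early domain of 2.555 to 2.61 Mb that runs to the last measured position, 331 kb above the end of Tnfrsf18. Tnfrsf4 overlaps the gene Sdf4, with a control mean of 2.995 ± 0.148 and a deletion mean of 3.116 ± 0.242 (SD, n = 2 each), and since the genes overlap, their scores are not separate measurements.

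Tnfrsf1b, which encodes TNF receptor 2, had control scores of 2.04 and 2.58 and deletion scores of 2.43 and 2.63. Tnfrsf8, which encodes CD30, had control scores of 2.09 and 2.64 and deletion scores of 2.41 and 3.06. In both genes the genotypes overlapped, with control 1 the lowest profile and deletion 2 the highest. The pair lies 407 to 537 kb inside the lower edge of an early domain of 6.475 to 6.53 Mb, counted from the start of either gene. Tnfrsf9, the gene for the costimulator 4-1BB, lies at the other end of that domain, 309 to 334 kb from its upper edge. Its scores were 2.55 and 2.23 for the controls and 2.56 and 2.55 for the deletions. The deletion profiles were the higher ones, although deletion 2 and control 1 were equal after rounding.

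Tnfrsf25 encodes death receptor 3 and is the receptor among these 7 with a death domain. Its scores of 2.54 and 2.31 for the controls overlapped those of 2.27 and 2.32 for the deletions. Its early domain was the smallest of the 3 that hold receptor genes, at 1.065 to 1.12 Mb, and the gene lay near its middle, 511 to 536 kb from the nearer edge. Its neighbours Plekhg5 and Espn lie within 0.212 kb of it, so its 2 bins are shared with them. Plekhg5 had a control mean of 2.30 ± 0.19 and a deletion mean of 2.14 ± 0.03, and Espn 2.52 ± 0.05 and 2.47 ± 0.10 (SD, n = 2 each).

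**Figure D4:**
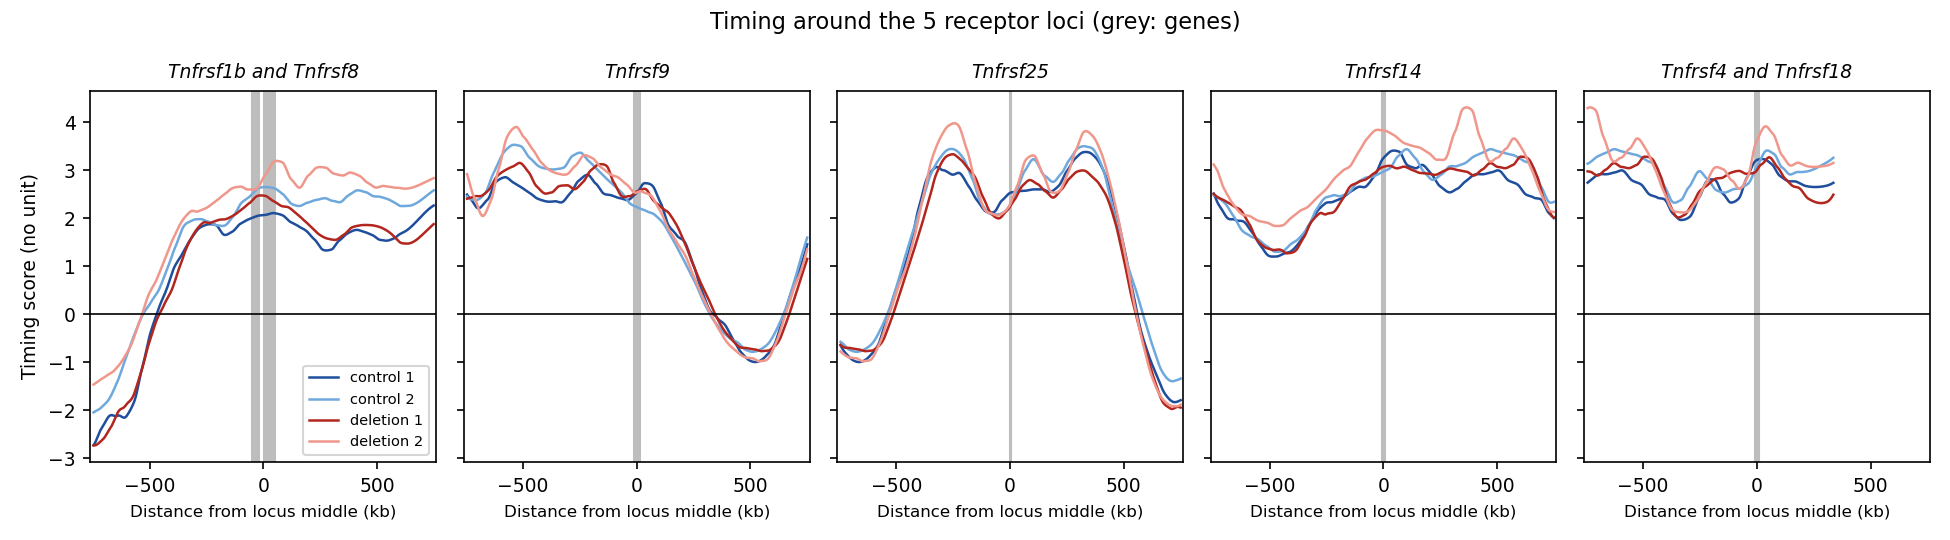
Timing score (vertical axis, no unit) against distance from the middle of each of the 5 receptor loci in kb for the 4 profiles, with genes in grey. The receptor genes lie above 0 in the 4 profiles; Tnfrsf9 lies 309 to 334 kb from an edge where the score crosses 0, and the profiles of the locus of Tnfrsf4 and Tnfrsf18 end 331 kb above Tnfrsf18.

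Of the receptor genes, 2 encode known partners of the ligands on the same chromosome. TL1A, from Tnfsf15, binds death receptor 3, and CD30 ligand, from Tnfsf8, binds CD30. Tnfrsf25 exceeded Tnfsf15 by 3.78 and 3.54 in the control profiles and by 4.202 and 3.653 in the deletion profiles, with overlap between genotypes. Tnfrsf8 exceeded Tnfsf8 by 5.02 and 4.89 without the deletion and by 5.32 and 5.18 with it. The second gap was wider in both deletion profiles, by 0.30 on average (exact two-sided permutation p = 0.333, the smallest possible). Each receptor thus replicated far earlier than its ligand in every profile.

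Genotype differences of the single genes were small against the spread of the fit. By limma, 0 of the 9 genes rose and 0 fell, and 0 of all 1301 genes were called (0%), with 17 of all genes and 0 of the 9 at an unadjusted p under 0.05. Without deletion 1, limma called 4 of the 1301 genes, none of them among the 9, in a fit whose spread comes from the control profiles alone and which assumes that the lone deletion profile varies like them. The 9 differences, deletion minus control, ran from -0.40 to 0.37, and 7 were positive and 2 negative. Their median was 0.16, against 0.14 over all genes. Tnfsf15 had the lowest of these differences, at -0.40 (limma 95% interval -1.105 to 0.305, adjusted p = 0.999), or -0.56 relative to the chromosome. It had rank 21 from the lowest among all 1301 differences. Kif12 and Col27a1, at lower coordinates, were lower still, at -0.44 and -0.46. Between Col27a1 and Tnfsf15, the genes Orm1, Orm3, Orm2, Akna and Whrn were at -0.36 to -0.30. Nearer to Tnfsf15, the genes Atp6v1g1, Tmem268, Gm11213 and Tex48 were at -0.11 to -0.02. The difference of Tnfsf15 was -0.10 without deletion 1 and -0.70 without deletion 2, so its size rests largely on deletion 1.

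Tnfrsf8 had the highest of the 9 differences, at 0.37 (limma 95% interval -0.36 to 1.09, adjusted p = 0.999), or 0.21 relative to the chromosome. It was 0.04 without deletion 2 and 0.69 without deletion 1. Tnfrsf14 differed by 0.34 and Tnfrsf1b by 0.22, or by 0.18 and 0.07 relative to the chromosome, and each turned negative with 1 profile left out, to -0.04 without deletion 2 and to -0.05 without control 1. Tnfrsf18, Tnfrsf9 and Tnfrsf4 differed by 0.19, 0.16 and 0.15, which is 0.03, 0.01 and -0.01 relative to the chromosome. Without deletion 2, Tnfrsf18 and Tnfrsf4 turned negative, to -0.13 and -0.14. Tnfrsf9 was 0.0065 without control 2 and 0.32 without control 1. Tnfrsf25 differed by -0.13 and Tnfsf8 by 0.07, or by -0.29 and -0.09 relative to the chromosome. Tnfrsf25 was -0.02 without control 1 and -0.24 without control 2. Tnfsf8 ran from -0.33 without deletion 2 to 0.46 without deletion 1. Scaling moved these small values: the median over all genes was 0.14 as deposited, 0.03 with each profile centred on its median and -0.03 with quantiles equalised, and 7, 6 and 4 of the 9 differences were positive in that order. Tnfsf8 turned negative under both, and Tnfrsf9 and Tnfrsf4 under quantile normalization. The intervals of all 9 genes held 0, and each would also hold a difference of 0.5 in at least 1 direction, so equal timing is not shown.

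The deletion profiles stood above the controls without overlap in 1 of the 9 genes, Tnfrsf9, against 15.1% of all genes. They stood below without overlap in 1 of the 9, Tnfsf15, against 6.53% of all genes. Neither share departs from its background by more than a single gene. The difference of Tnfrsf9 was -0.00058 after quantile normalization, so its direction depends on the scaling. Its genotypes also overlapped after median centring and with positions read as bin ends. They overlapped as well with 50 kb added on each side of the gene (exact two-sided permutation p = 0.667).

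**Figure D5:**
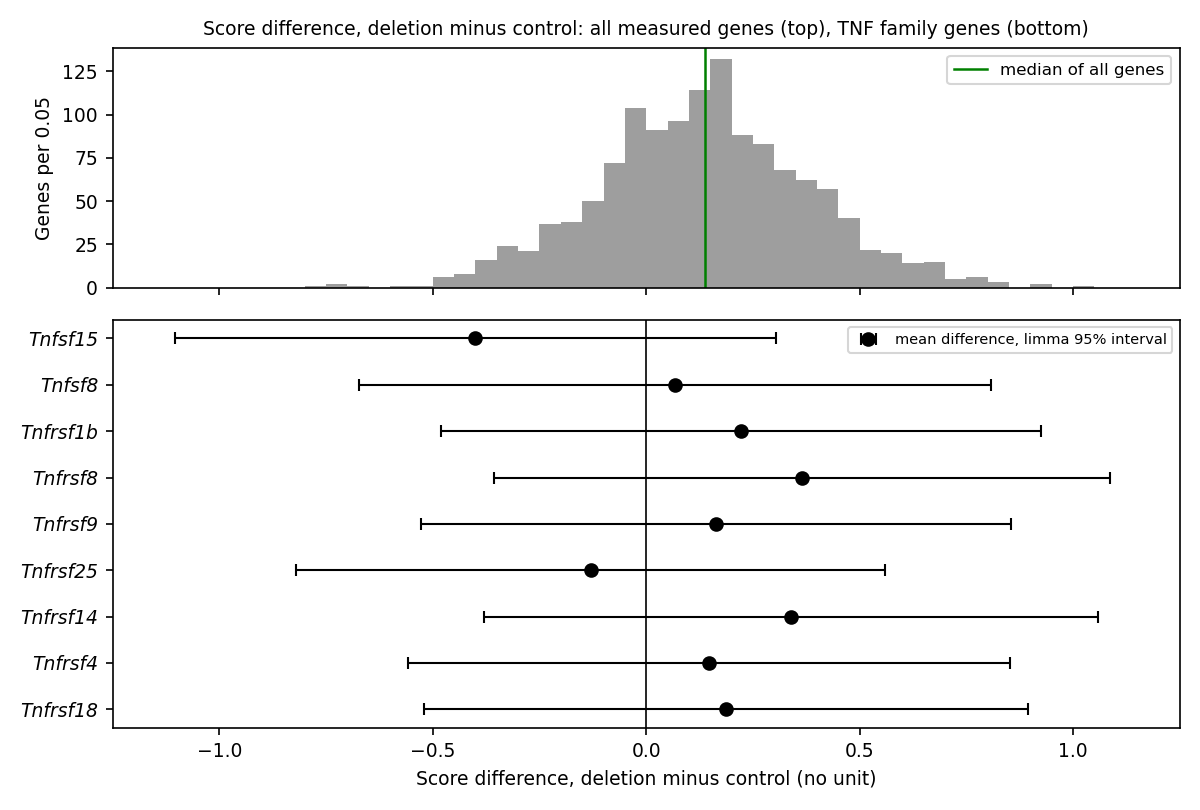
Score difference, deletion minus control (horizontal axis, no unit), as a histogram over all 1301 genes with their median of 0.14 in green (top) and for the 9 TNF family genes with limma 95% intervals (bottom). The interval of each of the 9 genes holds 0, and Tnfsf15 lies lowest at -0.40.

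Whether a locus changed differently from another was tested on the gap between their scores within each profile. The 19 gaps covered 15 pairs of loci, the 3 pairs of neighbours and all receptors against all ligands. Genotypes did not overlap in 8 of the 19 and overlapped in the others. If the 4 profiles were interchangeable, any 1 gap would be without overlap with probability 0.333. The gaps reuse the same loci, so these 8 are not separate events, and no background share over gaps of other genes was computed. No exact two-sided permutation p was below 0.333 (0.792 after Benjamini-Hochberg adjustment), the smallest that this test can give for 2 profiles against 2. No model-based test was run on the gaps. The ligand pair minus the pair of Tnfrsf1b and Tnfrsf8 was -4.25 ± 0.14 for the controls and -4.71 ± 0.20 for the deletions (SD, n = 2 each). All receptors minus all ligands was 4.61 ± 0.24 for the controls and 4.96 ± 0.20 for the deletions (SD, n = 2 each), and these overlapped after quantile normalization. Tnfrsf9 minus Tnfrsf25 was -0.03 ± 0.06 for the controls and 0.26 ± 0.04 for the deletions (SD, n = 2 each). The gaps just given are all from the 8 without overlap. The ligand pair minus Tnfrsf25, where genotypes overlapped, was -4.333 ± 0.403 for controls and -4.369 ± 0.455 for deletions (SD, n = 2 each).

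Other genes of the chromosome in TNF signalling or in related apoptosis and kinase pathways were taken from a fixed list of 8. All of them were measured. Of these, 7 were early and 1 late in every profile. Casp9, an initiator caspase of the mitochondrial pathway, was the earliest by control mean, with control scores of 3.03 and 3.36 and deletion scores of 2.82 and 3.56. Ripk2, a kinase that acts in NF-kappaB activation, was the late one, with control scores of -1.34 and -1.49 and deletion scores of -0.89 and -1.42. Map3k7, which encodes the kinase TAK1 downstream of TNF receptors, had control scores of 0.925 and 0.970 and deletion scores of 1.203 and 1.386. It had the highest difference of the list, 0.35, and Casp9 the lowest, -0.01. Casp8ap2, Dffa, Dffb, Jun and Map3k6 had control means between 1.46 and 2.84. By limma, 0 of the 8 rose and 0 fell, with 0 at an unadjusted p under 0.05, against the 0% called among all genes. The deletion profiles stood above the controls without overlap in 2 of the 8, Map3k7 and Dffb, and below them in 0, against the 15.1% and 6.53% of all genes.

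For each of the 9 genes, the protein-coding gene over 1 Mb away with the most similar scores was found by the root mean squared difference over the 4 profiles. For Tnfsf8 it was Gm11236, at 0.033, and for Tnfsf15 it was Pramel22, at 0.138, the largest of the 9 values. Pramel22 had control scores of -1.268 and -0.996 and deletion scores of -1.798 and -1.324, so its deletion profiles were also the lower ones, which the choice by likeness favours. For Tnfrsf1b, Tnfrsf8, Tnfrsf9 and Tnfrsf25 the closest genes were Smpdl3b, Cort, Tmem222 and Zmym1, at 0.040, 0.085, 0.066 and 0.086. Rimkla was the closest to both Tnfrsf14 and Tnfrsf4, at 0.134 and 0.086, and Fhad1 to Tnfrsf18, at 0.071.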

How the data were processed

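The 8 libraries, an early and a late one per profile, were assigned to a genotype by their labels, and columns by their names. The deposited values are timing scores that the authors scaled to a common interquartile range, per the name of the deposited table. Bowtie2, SAMtools, bedtools and mm10 are named in the submitters' processing notes, without versions. The formula of the score, its log base and its smoothing are not given in the sources used here. Positions with a score in all profiles (30659 of 31301) were used, each taken as the start of a 5 kb bin. Gene bounds and promoters came from RefSeq tables of GRCm38.p6, the same build.

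Scores of 1301 protein-coding genes were fitted together by lmFit and eBayes of limma 3.58.1 (R 4.3.3), two-sided, with Benjamini-Hochberg adjustment over all genes and a threshold of 0.05. limma's intervals and p-values use the spread of each gene, drawn towards a common value estimated from all genes. The fit was tested on simulated data. Values of loci, gaps and the domain edge were set against every relabelling of the 4 profiles in an exact two-sided permutation test. Domains were runs of measured positions on one side of 0.

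The rule that picks the genes reads no scores, but the gene family and the lists were chosen with earlier results of these data known. Named genes were the 9 members, the extremes of the TNF signalling list, the nearest neighbours and the most similar distant gene. The alternatives were median centring, quantile normalization, the replicate number as a block, other bins, limma's trend and robust options and leaving out each profile.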

Additional observations from a re-analysis of the deposited data

How the results depend on the processing

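The receptor genes were early (7 of 7) and the ligand genes late (2 of 2) in every profile under the 5 other scalings and bin choices. No member was called by limma under any of the 12 alternatives. The 1301 genes gave 0 to 4 calls with single profiles left out, and the 4 came without deletion replicate 1. The difference of Tnfsf15 stayed negative under all 12, from -0.70 to -0.10, as did that of Tnfrsf25, from -0.287 to -0.016. That of Tnfrsf8 stayed positive, from 0.043 to 0.688. Each fit without 1 profile takes its spread from the genotype that keeps both profiles.

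Directions that reversed, the cause of which was not tested, were these. After median centring, with or without the replicate block, Tnfsf8 differed by -0.043. After quantile normalization Tnfsf8 differed by -0.106, Tnfrsf9 by -0.00058, Tnfrsf4 by -0.036 and the locus of Tnfrsf4 and Tnfrsf18 by -0.012. With single profiles left out, differences ran from -0.327 to 0.462 for Tnfsf8, -0.047 to 0.492 for Tnfrsf1b, -0.040 to 0.718 for Tnfrsf14, -0.143 to 0.436 for Tnfrsf4, -0.130 to 0.504 for Tnfrsf18, -0.514 to 0.181 for the ligand pair and -0.136 to 0.470 for the locus of Tnfrsf4 and Tnfrsf18. Of the 19 gaps, 2 were recomputed under alternatives. Receptors minus ligands and Tnfsf15 minus Tnfsf8 kept their direction under the 11 run on them, and the other 17 were not recomputed.

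Deviations from the group mean of profiles with the same number correlated at 0.637 across positions, but the labels do not state a pairing. With the replicate number as a block, limma called 0 of 1301 genes and 0 members, with 165 genes and 0 members at an unadjusted p under 0.05. With median centring as well it called 0 genes, with 93 genes and 1 member at an unadjusted p under 0.05. That member was Tnfsf15, with a difference of -0.51 (limma adjusted p = 0.639). The adjusted p of Tnfsf15 was 0.438 with the block alone, and 0.438 to 0.9997 over its alternatives. With 2 profiles per genotype the exact permutation test cannot pass 0.05, and the depth behind the scores is unknown.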
